A study of Mus musculus with 18 samples.

Results

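Normal growth of the ovary from postnatal day 3 (Pd3) to postnatal day 7 (Pd7) was followed in the F1-Control libraries of the first sequencing batch, which are 6 of the 18 libraries of the series. They are RNA-seq libraries of whole ovaries of C57BL/6J wild type females. Their mothers ate a normal diet, and 3 libraries were made at each age, numbered as replicates 1 to 3. The series also holds F1-HHcy libraries, from daughters of mothers fed 3% methionine to raise homocysteine, and Pd21 libraries of both diets, which form the second batch. These are used below only beside the control course. The labels do not say how many pups gave the RNA of a library or whether pups shared a litter, so the p-values measure the spread between these libraries, which may be partly technical. Between 35117268 and 36583819 fragments per library were assigned to genes, and of the 30172 genes listed, the 13336 that reached 1 FPKM (fragments counted on a gene, divided by its length in kilobases and by the depth of its library) in 3 or more of the 6 libraries were tested. The defining genes of the tissue were present in all 6 libraries, with at least 13.2 FPKM of the germ cell marker Ddx4, 130.1 FPKM of the zona gene Zp3 and 45.7 FPKM of the granulosa gene Foxl2.

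In the mouse, oocytes leave germ cell cysts around birth and are each enclosed by flat pregranulosa cells, which gives primordial follicles. Most of these stay dormant, while a first wave starts to grow at once: the granulosa cells become cuboidal and divide, and the oocyte enlarges, builds the zona pellucida and stores maternal transcripts. KIT ligand from granulosa cells acts through KIT and PI3K signalling in the oocyte and moves FOXO3, which holds follicles dormant, out of the nucleus. GDF9 and BMP15 from the oocyte act back on the granulosa cells, and theca cells, smooth muscle and vessels are then recruited around the growing follicle.

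The libraries of the same age did not stand equally close to each other. The first principal component of the 6 libraries held 64.4% of the variance of the genes tested. On it the Pd3 libraries lay at −33.1, −28.5 and −26.2 and the Pd7 libraries at 11.7, 38.8 and 37.3, so that Pd7 replicate 1 was the Pd7 library nearest to Pd3. It was the one nearest to Pd3 for 54.2% of the genes called higher at Pd7 and for 71.1% of those called lower. The blood genes differed between libraries of 1 age as well. The summed level of 12 erythroid genes was 12260, 6887 and 4135 FPKM at Pd3 and 6095, 1564 and 930.9 FPKM at Pd7, and Pd7 replicate 1 overlapped the Pd3 libraries.

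At Pd7, 920 genes were higher (6.9% of those tested) and 1012 were lower (7.59%) than at Pd3, called by limma where the p adjusted over all genes tested (Benjamini-Hochberg) was under 0.05. A log2 fold change of at least 1 in size was also met by 381 of the higher (2.86%) and 213 of the lower genes (1.6%), and 4205 genes (31.5%) had an unadjusted p under 0.05. Values below are FPKM, means are given ± SD over n = 3 libraries, and log2 fold changes are Pd7 against Pd3 on log2(FPKM + 1), which understates the change of genes near 1 FPKM. The median log2 fold change of all genes tested was −0.07, with 5593 genes above 0 and 7743 below it. The groups did not overlap for 2086 genes that were higher at Pd7 (15.6%) and 3056 that were lower (22.9%). Of the called genes, 378 higher and 177 lower ones were still called with any 1 of the 6 libraries left out. All 1932 (14.5% of the genes tested) kept their direction, which groups without overlap cannot lose when 1 library is left out. The counts fell to 405 and 210 without Pd3 replicate 1, to 443 and 240 without Pd3 replicate 2, to 589 and 402 without Pd3 replicate 3 and to 584 and 364 without Pd7 replicate 3, while 922 and 1371 genes were called without Pd7 replicate 1. With 3 libraries against 3, the smallest p of a two-sided exact permutation test for any gene taken alone is 0.1. The filter let 201 genes pass through their Pd7 values only and 106 through their Pd3 values only, and such genes had to differ. In bulk RNA of a whole ovary, more or fewer cells of a type and more or less RNA per cell cannot be told apart.

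The zona pellucida is the glycoprotein coat of the oocyte, and the genes of its proteins were among the most abundant oocyte transcripts that rose. Of the 9 tested genes of the oocyte surface list, 7 were higher at Pd7 and none was lower, with a median log2 fold change of 1.55, and 1 of the 9 passed the filter through Pd7 only. Zp3 (chr5:135980105-135988624 in GRCm38.p6) measured 130.1, 163 and 217 FPKM at Pd3 and 354, 689 and 479 FPKM at Pd7. Every Pd7 library lay above every Pd3 library, and the log2 fold change was 1.55 (SE 0.27, adjusted p = 0.00754, and 0.0545 with no filter on low values). Zp2 measured 202, 226 and 321 FPKM at Pd3 and 591, 906 and 578 FPKM at Pd7, which gave a log2 change of 1.46 (SE 0.24, adjusted p = 0.0067). Zp1 rose from 48.3 ± 5.18 to 95.2 ± 27.7 FPKM without overlap (log2 fold change 0.92, adjusted p = 0.0245), a call that was lost without any 1 of the Pd3 libraries or without Pd7 replicate 3 (adjusted p 0.0544 to 0.0984). The oocyte-secreted proteins of the Oosp family rose more. Oosp1 measured 3.09, 3.61 and 7.01 FPKM at Pd3 and 83.7, 102 and 101 FPKM at Pd7, with little spread at Pd7 (log2 fold change 4.17, SE 0.23, adjusted p = 0.000103). Oosp2 went from 3.46 ± 0.726 to 22.1 ± 5.97 FPKM without overlap (adjusted p = 0.000272). Oosp3 went from 0.305 ± 0.216 to 14.3 ± 3.7 FPKM (adjusted p = 0.000103), but it had passed the filter through Pd7 only and so had to differ.

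The growth factors that the oocyte sends to granulosa cells rose as well. Gdf9 (chr11:53430774-53437904) measured 33.5, 35.0 and 52.3 FPKM at Pd3 and 111, 195 and 294 FPKM at Pd7. The lowest Pd7 library was above the highest Pd3 library, and the log2 fold change was 2.20 (SE 0.32, adjusted p = 0.00363). Bmp15, its X-linked partner, measured 1.17, 0.707 and 1.80 FPKM at Pd3 and 14.3, 14.8 and 26.3 FPKM at Pd7, with a log2 change of 3.10 (SE 0.26, adjusted p = 0.000227). The third tested gene of this list, Bmp6, had 9.21 ± 1.76 and 12.3 ± 0.845 FPKM and did not pass (adjusted p = 0.119), so 2 of 3 were higher, with a list median of 2.20. Per length, the level of Gdf9 was above that of Bmp15 in each of the 6 libraries.

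**Figure D1:**
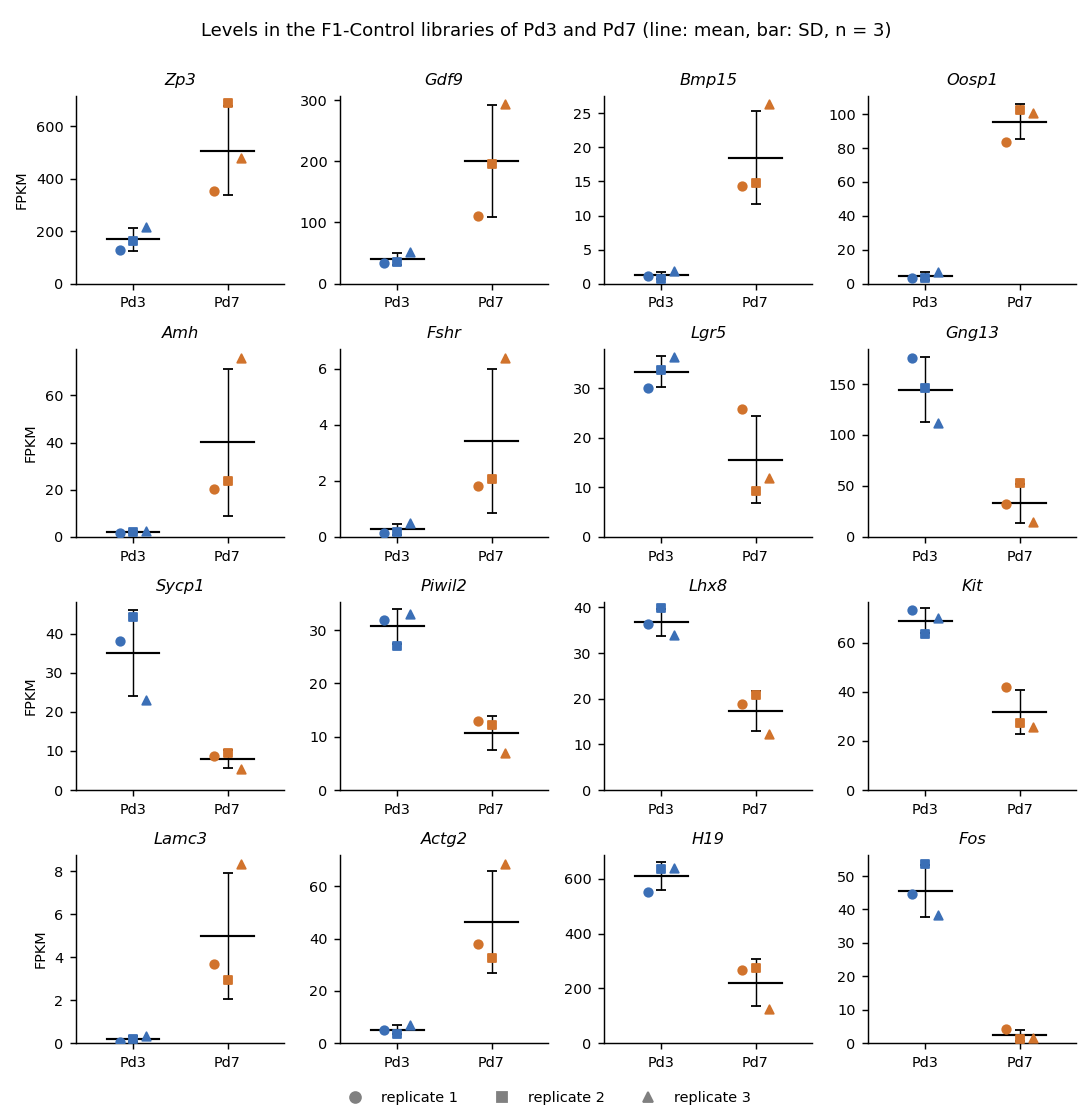
FPKM of 16 genes in the 3 Pd3 (blue) and 3 Pd7 (orange) F1-Control libraries, 1 panel per gene with its own axis from 0; symbols mark the replicate number, the line is the mean and the bar the SD (n = 3). The Pd7 points lie above the Pd3 points for Zp3, Gdf9, Bmp15, Oosp1, Amh, Fshr, Lamc3 and Actg2 and below them for the other 8 genes, and Pd7 replicate 3 is far above the other Pd7 libraries for Amh (76.1 against 20.5 and 23.8 FPKM).

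Promoters are shown for 4 genes of the growing oocyte that rose and for Sycp3, a meiotic gene that fell, because helix-loop-helix factors of the oocyte, FIGLA among them, bind E boxes (CANNTG) and FIGLA is known to act on the zona genes. Each sequence is the 250 bases before the RefSeq transcript start in GRCm38.p6, written 5′ to 3′ on the strand of the gene, with every E box in capitals. The windows are chr5:135979855-135980104 (plus strand) for Zp3, chrX:6320725-6320974 (minus) for Bmp15, chr19:11691052-11691301 (minus) for Oosp1, chr7:15750120-15750369 (plus) for Obox5 and chr10:88459337-88459586 (plus) for Sycp3.
Zp3: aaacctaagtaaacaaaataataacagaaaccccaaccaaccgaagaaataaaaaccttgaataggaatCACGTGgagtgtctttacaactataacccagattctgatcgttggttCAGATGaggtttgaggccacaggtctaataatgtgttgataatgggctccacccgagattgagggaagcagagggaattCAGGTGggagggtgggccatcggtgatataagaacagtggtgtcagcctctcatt
Bmp15: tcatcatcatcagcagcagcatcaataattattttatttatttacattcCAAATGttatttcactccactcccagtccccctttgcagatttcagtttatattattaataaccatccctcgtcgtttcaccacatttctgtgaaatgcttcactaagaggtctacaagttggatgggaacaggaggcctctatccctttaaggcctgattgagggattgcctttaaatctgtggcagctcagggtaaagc
Oosp1: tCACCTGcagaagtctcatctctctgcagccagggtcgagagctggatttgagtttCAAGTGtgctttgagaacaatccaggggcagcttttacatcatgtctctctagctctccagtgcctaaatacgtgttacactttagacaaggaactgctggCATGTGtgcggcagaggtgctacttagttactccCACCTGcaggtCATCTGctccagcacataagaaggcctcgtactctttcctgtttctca
Obox5: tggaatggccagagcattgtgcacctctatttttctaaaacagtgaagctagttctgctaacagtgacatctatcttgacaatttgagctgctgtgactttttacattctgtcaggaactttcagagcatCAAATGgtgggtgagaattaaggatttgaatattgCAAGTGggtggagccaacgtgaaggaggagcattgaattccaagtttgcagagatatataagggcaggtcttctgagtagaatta
Sycp3: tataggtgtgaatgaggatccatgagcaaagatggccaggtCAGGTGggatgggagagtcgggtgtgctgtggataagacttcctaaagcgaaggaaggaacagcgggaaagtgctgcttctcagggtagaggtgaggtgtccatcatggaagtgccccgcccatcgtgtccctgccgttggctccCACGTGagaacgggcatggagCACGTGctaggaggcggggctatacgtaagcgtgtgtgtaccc

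The Zp3 window held 3 E boxes, starting 181, 134 and 55 bases before the start, and the Oosp1 window held 5, while the Bmp15 window held 1 at 201 bases. The Sycp3 window, of a gene that fell, held 3 as well. These promoters other than Zp3 were chosen after the values had been seen. In windows of 300 bases that reach 50 bases past the start, CANNTG on either strand was found in 92.7% of the 41 promoters given for the 50 called genes of the 5 lists of growing-oocyte genes that rose, in 70.0% of 694 promoters of all genes higher at Pd7, in 66.1% of 817 promoters of genes lower at Pd7, in 63.6% of 10690 promoters of tested genes and in 72.1% of all 27025 promoters. CAGGTG or its reverse complement CACCTG, which is a case of CANNTG, was found in 41.5%, 21.5%, 23.4%, 17.8% and 20.03% of the same sets. TAATTG, the letters bound by NOBOX, was found in 12.2%, 7.35%, 5.14%, 4.66% and 8.15%. AAGGTCA, the letters bound by NR5A1, was found in 7.32%, 3.46%, 2.82%, 3.12% and 4.66% of these sets and in 0 of the 10 promoters given for the theca and steroid list. Of those 10, CANNTG was found in 7, CAGGTG in 2 and TAATTG in 1. Many of the 41 promoters belong to gene families whose copies share sequence, so they are not independent, and a match is a description of letters only.

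Many of the largest rises belonged to oocyte gene families with many near-identical copies. Of 25 tested members, 22 were higher and 1 was lower, with a median log2 fold change of 2.24, and 5 had passed the filter through Pd7 only and 1 through Pd3 only. The Obox genes encode oocyte homeobox proteins. Obox2 was at 0 fragments in all 3 Pd3 libraries and at 1134, 797 and 2682 fragments at Pd7 (23.9, 17.0 and 55.2 FPKM), which is at least 502-fold higher when the Pd3 level is set to 3 fragments per library, and at least 320.3-fold without Pd7 replicate 3. Obox5 measured 0.0216, 0.213 and 0.369 FPKM at Pd3 and 22, 17.9 and 31.4 FPKM at Pd7, for a log2 rise of 4.34 (SE 0.21, adjusted p = 9.43e-05). Obox2 and Obox5 had both passed the filter through Pd7 only and so had to differ. The Fbxw genes, which encode F-box proteins with WD repeats, rose together. Fbxw24, the most abundant of those named here, went from 17.2 ± 5.21 to 137 ± 20.2 FPKM (log2 fold change 2.95, adjusted p = 0.000108). Fbxw20 went from 0.875 ± 0.581 to 26.2 ± 8.66 FPKM and Fbxw14 from 0.953 ± 0.388 to 15.0 ± 2.6 FPKM. Outside the list, Pramel26 (1.02 ± 1.23 to 24.8 ± 10.2 FPKM) and Ftdc1 (1.55 ± 0.576 to 27.9 ± 7.31 FPKM) were among the 12 largest called rises without overlap. Reads of such copies cannot always be assigned to 1 of them, so the value of a single copy is uncertain.

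A list joined the oocyte Nlrp genes with the genes of the maternal proteins that form the subcortical complex of the oocyte. Of its 16 members, 11 were higher and none was lower, with a median log2 fold change of 1.30, and 5 had passed the filter through Pd7 only. Nlrp14 was already abundant, at 98.4, 102 and 156 FPKM at Pd3, and measured 372, 525 and 402 FPKM at Pd7. The groups were well apart, with a log2 change of 1.87 (SE 0.22, adjusted p = 0.00117). Nlrp2 went from 0.217 ± 0.154 to 8.74 ± 2.96 FPKM, Nlrp9b from 0.375 ± 0.132 to 11.9 ± 5.34 FPKM and Nlrp4a from 0.997 ± 0.601 to 13 ± 2.81 FPKM, each without overlap. Nlrp2 and Nlrp9b had passed the filter through Pd7 only and so had to differ. Ooep, a core member of the complex, rose from 198 ± 21.3 to 414 ± 138 FPKM (adjusted p = 0.0223, and 0.0559 to 0.101 without any 1 of the Pd3 libraries). By contrast Nlrp5, also known as Mater, had 114, 111 and 179.8 FPKM at Pd3 and 195, 307 and 147 FPKM at Pd7. Its groups overlapped through Pd7 replicate 3 (log2 fold change 0.65, adjusted p = 0.151). They did not overlap as a ratio to Ddx4, given below, which was itself lowest in that library. Tle6 (127 ± 13.3 and 153 ± 33.2 FPKM, adjusted p = 0.378) and Nlrp4f (79.3 ± 3.38 and 76.0 ± 8.75 FPKM, adjusted p = 0.756) also overlapped and were not called. Padi6, which builds the cytoplasmic lattices, had 434 ± 104 and 736 ± 193 FPKM, with an adjusted p of 0.0787, of 0.0332 with the replicate number as a block and of 0.0327 without Pd7 replicate 1.

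Genes for storing and translating oocyte messenger RNA did not move in 1 direction. Of 12 tested, 8 were higher and 3 lower, with a median of 1.42, and 2 had passed the filter through Pd7 only. Zar1, needed for the maternal transcript store, measured 7.12, 9.17 and 14.1 FPKM at Pd3 and 51.8, 91.6 and 88 FPKM at Pd7 (log2 fold change 2.82, SE 0.27, adjusted p = 0.000476). Its relative Zar1l went from 0.672 ± 0.393 to 8.87 ± 2.65 FPKM, but had passed the filter through Pd7 only and so had to differ. Btg4, an adaptor of the deadenylase that later clears maternal transcripts, went from 4.04 ± 0.777 to 14.3 ± 1.28 FPKM. Ybx2, the germ cell Y-box protein that binds stored messenger RNA, took the opposite course, with 125, 122 and 127 FPKM at Pd3 and 65.3, 57.1 and 45.7 FPKM at Pd7. Its Pd3 values were nearly equal and all Pd7 values lay below them (log2 fold change −1.16, SE 0.15, adjusted p = 0.00197). Lsm14b, a component of oocyte ribonucleoprotein particles, fell from 117 ± 5.8 to 68.2 ± 5.44 FPKM (adjusted p = 0.00565).

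Of the 9 tested genes of meiotic arrest and maturation, 4 were higher and none lower, with a median of 0.26. Mos, the kinase that keeps mature oocytes in metaphase of the second division, measured 3.10, 3.22 and 4.58 FPKM at Pd3 and 13.1, 20.2 and 28.7 FPKM at Pd7 (log2 fold change 2.18, SE 0.26, adjusted p = 0.00127). Aurkc, the germ cell Aurora kinase, went from 1.71 ± 0.428 to 8.67 ± 0.971 FPKM (adjusted p = 0.000336). Wee2, an inhibitor of CDK1, rose from 7.28 ± 0.881 to 14.8 ± 2.93 FPKM (adjusted p = 0.00959, and 0.0509 without Pd3 replicate 1). Bcl2l10, an oocyte member of the Bcl2 family, was among the 12 largest called rises without overlap, from 4.12, 4.52 and 7.05 FPKM to 66.3, 95.1 and 107 FPKM (log2 fold change 3.86, SE 0.22, adjusted p = 0.000103).

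The transcription factor genes of primordial oocytes, listed together with the RNA-binding protein gene Lin28a, did not rise. Of the 9 genes tested, 5 were lower, Lin28a among them. None was higher and all 9 fold changes were below 0, with a median of −0.87. Lhx8 measured 36.3, 39.8 and 34.0 FPKM at Pd3 and 18.9, 20.8 and 12.3 FPKM at Pd7. The groups were clearly apart (log2 fold change −1.07, SE 0.18, adjusted p = 0.0075). Sohlh1 had 92.5, 89.8 and 96.5 FPKM at Pd3 and 51.7, 66.6 and 28.6 FPKM at Pd7 (log2 fold change −0.99, adjusted p = 0.0358), a call lost without any 1 of the Pd3 libraries (adjusted p 0.104 to 0.106), and its log2 fold change was −0.65 without Pd7 replicate 3. Foxo3 fell from 31.7 ± 2.62 to 17.2 ± 4.39 FPKM (adjusted p = 0.013, and 0.0537 to 0.0567 without Pd3 replicate 1 or 3). Lin28a, an RNA-binding protein, fell from 7.20 ± 0.522 to 3.28 ± 0.171 FPKM (adjusted p = 0.00349). Figla and Nobox passed in neither direction. Figla had 66.0, 68.3 and 55.3 FPKM at Pd3 and 50.9, 78.6 and 31.1 FPKM at Pd7, and Nobox had 72.8, 77.3 and 85.8 FPKM and 65.8, 95.0 and 60.3 FPKM. Both sets of groups overlapped (adjusted p = 0.454 and 0.685), with Pd7 replicate 2 highest and replicate 3 lowest.

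General germ cell genes were lower or unresolved. Of 11 tested, 5 were lower, none was higher and all fold changes were below 0, with a median of −0.52, and 1 had passed the filter through Pd3 only. Ddx4, the RNA helicase used as the standard germ cell marker, had 20.9, 21.9 and 20.6 FPKM at Pd3 and 16.2, 18.4 and 13.2 FPKM at Pd7. The groups did not overlap, but the log2 fold change of −0.40 (SE 0.14) did not pass (adjusted p = 0.0896, and 0.0294 without Pd7 replicate 2). Dazl, an RNA-binding protein of germ cells, measured 49.1, 63.4 and 42.6 FPKM at Pd3 and 22.8, 20.1 and 14.1 FPKM at Pd7 (log2 fold change −1.40, SE 0.20, adjusted p = 0.00333). Tex101 went from 3.31 ± 1.63 FPKM to 0.0266, 0 and 0 FPKM (adjusted p = 0.00261), but it had passed the filter through Pd3 only and so had to differ.

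Ratios to Ddx4 in the same library give each germ cell transcript beside a germ cell marker, as a description. Ddx4 itself lay at 20.6 to 21.9 FPKM at Pd3 and at 13.2 to 18.4 FPKM at Pd7. Dividing by it therefore raised every Pd7 ratio relative to Pd3, and a ratio alone is no evidence of a rise. Per Ddx4, Zp3 was 6.23, 7.47 and 10.5 at Pd3 and 21.9, 37.5 and 36.3 at Pd7, and Gdf9 was 1.61, 1.6 and 2.54 and then 6.87, 10.6 and 22.2. Both were separate between the ages on this scale too. The ratio of Lhx8 was 1.74, 1.82 and 1.65 at Pd3 and 1.17, 1.13 and 0.932 at Pd7, and that of Sohlh1 was 4.43, 4.11 and 4.69 and then 3.20, 3.62 and 2.16. Foxo3, called lower in FPKM, overlapped as a ratio, at 1.51, 1.33 and 1.67 and then 1.38, 0.83 and 1.07, while the ratio of Nlrp5, not called in FPKM, did not overlap, at 5.46, 5.06 and 8.73 and then 12.1, 16.7 and 11.1. Figla and Nobox showed no separation as ratios, as Figla was 3.16, 3.13 and 2.68 at Pd3 and 3.15, 4.28 and 2.35 at Pd7, and the Nobox ratios lay between 3.49 and 4.16 at Pd3 and between 4.07 and 5.17 at Pd7.

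**Figure D2:**
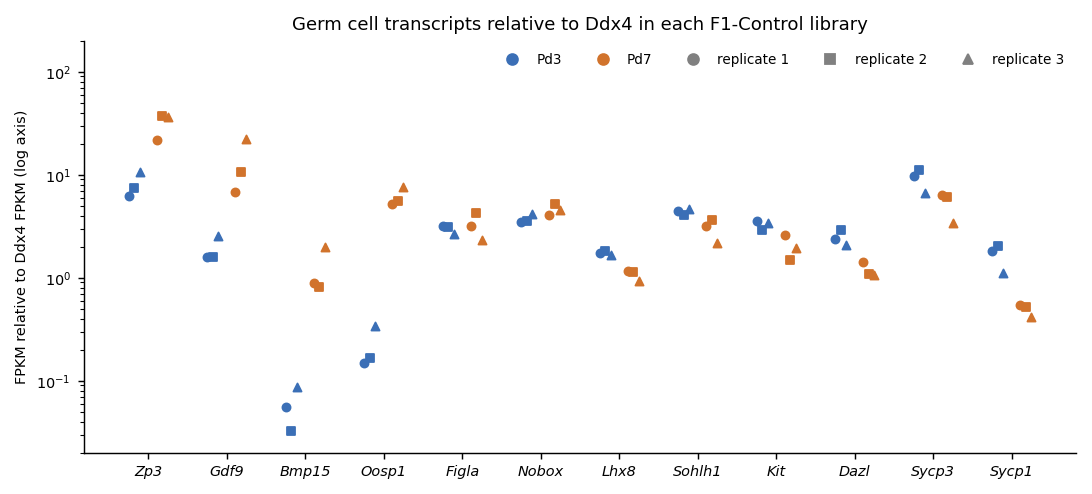
FPKM of 12 germ cell genes divided by the Ddx4 FPKM of the same library, on a log axis, for the 3 Pd3 (blue) and 3 Pd7 (orange) F1-Control libraries; symbols mark the replicate number. Zp3, Gdf9, Bmp15 and Oosp1 lie higher at Pd7, Figla and Nobox overlap between the ages, and Lhx8, Sohlh1, Kit, Dazl, Sycp3 and Sycp1 lie lower at Pd7, for example Sycp1 at 0.541, 0.522 and 0.413 against 1.83, 2.02 and 1.11.

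The genes of the meiotic chromosome axis and synaptonemal complex, which hold homologous chromosomes together in fetal prophase, fell as a group: 11 of 14 tested genes were lower, none was higher and all 14 fold changes were below 0. The median was −1.10, and 2 of the 14 had passed the filter through Pd3 only. Sycp1, the transverse filament protein, measured 38.2, 44.2 and 22.9 FPKM at Pd3 and 8.74, 9.60 and 5.46 FPKM at Pd7, with a log2 change of −2.0 (SE 0.26, adjusted p = 0.00212). Syce3, of the central element, went from 9.71, 11.5 and 6.18 FPKM to 0.456, 2.76 and 0.198 FPKM (log2 fold change −2.40, SE 0.40, adjusted p = 0.00642, and 0.0554 with no filter). Rec8, the meiotic cohesin that stays on chromosomes during arrest, fell from 25.9 ± 3.41 to 9.47 ± 4 FPKM (adjusted p = 0.00671). Sycp3 (axis protein, its promoter printed above) had 204, 245 and 138 FPKM at Pd3 and 103, 112 and 44.9 FPKM at Pd7. The groups did not overlap (log2 fold change −1.24, adjusted p = 0.0417), but the call was lost without any 1 of the Pd3 libraries or without Pd7 replicate 3 (adjusted p 0.0533 to 0.148), and the log2 fold change was −0.82 without Pd7 replicate 3.

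Recombination genes were less clear. Of 14 tested, 3 were lower and none higher, with a median of −0.24, and 6 of the 20 listed were below the filter. Prdm9, which marks recombination hotspots, went from 2.03 ± 0.223 to 0.932 ± 0.406 FPKM (adjusted p = 0.0381), Rec114, a cofactor of double-strand break formation, from 3.68 ± 0.532 to 1.71 ± 0.48 FPKM (adjusted p = 0.0198) and Tex11 from 7.92 ± 1.29 to 3.49 ± 1.52 FPKM (adjusted p = 0.0307). Each of these calls was lost without Pd3 replicate 1, Pd3 replicate 2 or Pd7 replicate 3, and those of Prdm9 and Tex11 also without Pd3 replicate 3, and that of Prdm9 also without Pd7 replicate 2 (adjusted p 0.0506 to 0.137). Dmc1, the meiotic strand exchange protein, had 2.70 ± 0.506 and 2.12 ± 0.423 FPKM with overlap (adjusted p = 0.348).

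The piRNA pathway, which silences transposons in germ cells, was lower in 9 of 11 tested genes and higher in none, with a median of −0.80. Piwil2, a PIWI protein, measured 32.0, 27.0 and 33.1 FPKM at Pd3 and 12.9, 12.3 and 7.03 FPKM at Pd7 (log2 fold change −1.47, SE 0.21, adjusted p = 0.00331). Tdrd1, a tudor scaffold of the nuage, fell from 40.7 ± 3.94 to 21.7 ± 0.745 FPKM (adjusted p = 0.00285) and Gpat2 from 18.9 ± 1.54 to 8.49 ± 1.47 FPKM (adjusted p = 0.00297), both without overlap. The helicase Mov10l1 fell from 27.2 ± 1.57 to 15.4 ± 3.06 FPKM (adjusted p = 0.0127, and 0.0644 without Pd3 replicate 1).

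More granulosa cell genes rose than fell. Of 17 tested, 10 were higher and 2 lower, with a median of 1.26, and 2 had passed the filter through Pd7 only. Of the 17 fold changes, 7 were below 0, with the 2 called lower among them. The genes called lower were Kitl, given below, and Gatm (199 ± 29.5 to 126 ± 19.7 FPKM, adjusted p = 0.0324). Amh (chr10:80805240-80807679), the anti-Müllerian hormone made by granulosa cells of growing follicles, measured 1.65, 2.08 and 2.51 FPKM at Pd3 and 20.5, 23.8 and 76.1 FPKM at Pd7. All Pd7 libraries were well above Pd3, and replicate 3 was far above the other two, with a log2 change of 3.50 (SE 0.41, adjusted p = 0.00127). The same library was highest for other granulosa genes. Inha, the inhibin alpha subunit, had 34.2, 35.1 and 34.6 FPKM at Pd3 and 70.2, 99.6 and 242 FPKM at Pd7, and its log2 fold change of 1.76 (SE 0.37, adjusted p = 0.0162) was 1.25 without Pd7 replicate 3. Fshr, the receptor for follicle-stimulating hormone, had 0.132, 0.177 and 0.495 FPKM at Pd3 and 1.80, 2.07 and 6.39 FPKM at Pd7 (adjusted p = 0.0136). Fshr had passed the filter through Pd7 only and so had to differ. Inhbb, an inhibin and activin beta subunit, rose from 14.1 ± 3.95 to 37.3 ± 13.7 FPKM (adjusted p = 0.0132). The calls of Inha, Inhbb and Fshr were lost without Pd3 replicate 1 or 2, that of Inha also without Pd3 replicate 3 (adjusted p 0.0546 to 0.0616). Hsd17b1, the enzyme that makes estradiol from estrone, went from 1.52 ± 0.764 to 17.6 ± 6.62 FPKM (adjusted p = 0.000551) and Slc18a2 from 20.5 ± 6.64 to 87.7 ± 31.1 FPKM (adjusted p = 0.00291). Foxl2, which maintains granulosa identity, had 59.0, 56.8 and 51.4 FPKM at Pd3 and 47.7, 45.7 and 61.9 FPKM at Pd7, overlapping and not called (adjusted p = 0.619), and Fst, the activin antagonist, had 30.3 ± 1.17 and 23.5 ± 3.3 FPKM (adjusted p = 0.0967, and 0.0216 without Pd7 replicate 2).

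Gap junctions couple the oocyte and its granulosa cells. Of 3 tested genes, Gja1, the connexin between granulosa cells, was higher, with 36.7, 38.9 and 49.2 FPKM at Pd3 and 82.7, 90.4 and 152 FPKM at Pd7 (log2 fold change 1.32, SE 0.23, adjusted p = 0.00739), none was lower and the median was 0.55. The call of Gja1 was lost in a model of all 18 libraries of the series (adjusted p = 0.0575) and with no filter on low values (0.0528).

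Genes of pregranulosa cells of dormant follicles ran the other way: 8 of 11 tested were lower and none was higher, with a median of −0.87. Gng13, a G protein subunit, measured 176, 146 and 112 FPKM at Pd3 and 32.1, 52.5 and 14.1 FPKM at Pd7, with a log2 change of −2.26 (SE 0.39, adjusted p = 0.00739, and 0.0599 with no filter). Wnt6, a WNT ligand, had 70.6, 66.4 and 71.7 FPKM at Pd3 and 28.9, 31.5 and 17.2 FPKM at Pd7 (log2 fold change −1.44, SE 0.20, adjusted p = 0.0033). The ligand gene Bmp2 fell from 2.63 ± 0.291 to 1.05 ± 0.0728 FPKM (adjusted p = 0.00748, and 0.0558 in the model of all 18 libraries). Lgr5, a receptor for R-spondin, had 30.1, 33.6 and 36.3 FPKM at Pd3 and 25.7, 9.28 and 11.8 FPKM at Pd7, so that Pd7 replicate 1 stood close to Pd3 (log2 fold change −1.17, adjusted p = 0.0338). Aldh1a1, a retinaldehyde dehydrogenase, fell from 257 ± 16 to 131 ± 35.1 FPKM (adjusted p = 0.013) and Cdkn1b, the cell cycle inhibitor p27, from 124 ± 21.1 to 62.1 ± 21.3 FPKM (adjusted p = 0.0245). The calls of Lgr5, Aldh1a1 and Cdkn1b were lost without Pd3 replicate 1 or 2, those of Lgr5 and Cdkn1b also without Pd7 replicate 3, and that of Lgr5 also without Pd3 replicate 3 or Pd7 replicate 2 (adjusted p 0.0597 to 0.107).

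Of 11 transcription factors of the somatic gonad, 2 were higher and 5 lower, with a median of −0.41. Tcf21, a factor of stromal and theca progenitors, measured 47.4, 70.1 and 60.9 FPKM at Pd3 and 123, 129 and 163 FPKM at Pd7 (log2 fold change 1.21, SE 0.18, adjusted p = 0.00367). Emx2 fell from 51.0 ± 7.9 to 26.3 ± 5.45 FPKM (adjusted p = 0.0103) and Runx1, which supports the early granulosa lineage, from 11.2 ± 0.976 to 4.91 ± 1.86 FPKM (adjusted p = 0.0124), both lost without Pd3 replicate 2 (adjusted p = 0.0523 and 0.0611). Wt1 fell from 152 ± 18.6 to 92.9 ± 25.4 FPKM (adjusted p = 0.0419), which was lost in every fit that left out a library other than Pd7 replicate 1 (adjusted p 0.0575 to 0.153).

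Hedgehog ligands from granulosa cells recruit theca cells. Of 7 tested genes 3 were higher and none lower, with a median of 0.41. Dhh, a ligand, measured 0.279, 0.559 and 0.690 FPKM at Pd3 and 2.14, 3.04 and 4.79 FPKM at Pd7 (log2 fold change 1.48, SE 0.23, adjusted p = 0.00488), and it had passed the filter through Pd7 only. The receptor Ptch1 rose from 9.27 ± 0.821 to 17.0 ± 1.8 FPKM (adjusted p = 0.00674, and 0.0544 in the model of all 18 libraries) and the transcription factor Gli1 from 4.88 ± 2.45 to 15.9 ± 2.15 FPKM (adjusted p = 0.01, and 0.0653 with no filter), both of them known targets of the pathway. The ligand Ihh was below the filter, with 0, 0.00915 and 0.0374 FPKM at Pd3 and 0.312, 0.371 and 3.47 FPKM at Pd7, and so was Hhip, a hedgehog-binding protein, with at most 0.0249 FPKM at Pd3 and 1.04, 0.917 and 4.19 FPKM at Pd7. Ihh and Hhip were picked after their values had been seen.

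The theca and steroid list was hardly resolved. Of steroid enzymes on the granulosa list, Hsd17b1, given above, and Cyp19a1 (0.469 ± 0.199 to 2.06 ± 1.1 FPKM, adjusted p = 0.0248) were higher. Cyp19a1 had passed the filter through Pd7 only and so had to differ. Of 10 tested genes of the theca and steroid list, 2 were higher and 1 lower, with a median of 0.15, and 4 of the 14 listed were below the filter. Cyp17a1, the androgen-forming enzyme of theca cells, had 0.787, 0.576 and 0.665 FPKM at Pd3 and 0.837, 0.599 and 9.03 FPKM at Pd7. Cyp11a1, which cleaves the cholesterol side chain, had 0.435, 0.569 and 0.517 FPKM and then 0.813, 1.5 and 9.72 FPKM, and Lhcgr, the receptor for luteinizing hormone, had 0.596, 0.560 and 0.327 FPKM and then 0.407, 0.202 and 3.86 FPKM. In all 3 genes a single library, Pd7 replicate 3, stood apart. Hsd3b1 rose from 114 ± 27.6 to 301 ± 109.7 FPKM (log2 fold change 1.36, adjusted p = 0.013, and 0.052 to 0.0646 without Pd3 replicate 1 or 2), Star, which moves cholesterol into mitochondria, had 7.74 ± 1.01 and 7.18 ± 1.39 FPKM (adjusted p = 0.709), and Aldh1a7 fell from 18.6 ± 2.84 to 6.84 ± 2.16 FPKM (adjusted p = 0.00496).

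The signalling genes that promote or restrain follicle activation were lower or unresolved as transcripts. In the list of KIT, PI3K, mTOR and FOXO3 signalling, 7 of 25 were lower (against 7.59% of all genes) and none was higher. The median was −0.21. The 7 were Kit, Kitl, Pik3cb, Pik3r2, Stk11, Foxo3 and Cdkn1b. They thus held both Kit and Foxo3, whose protein holds follicles dormant, and the count gives no direction of the pathway. Kit, the oocyte receptor, measured 73.5, 63.7 and 70.0 FPKM at Pd3 and 42.0, 27.4 and 25.7 FPKM at Pd7 (log2 fold change −1.13, SE 0.18, adjusted p = 0.00585), and per Ddx4 it was 3.52, 2.91 and 3.40 and then 2.60, 1.49 and 1.94. Its ligand Kitl had 64.7, 62.3 and 53.6 FPKM at Pd3 and 40.0, 34.9 and 37.8 FPKM at Pd7 (log2 fold change −0.66, adjusted p = 0.0107), a call lost without Pd3 replicate 1 or 2 (adjusted p 0.0587 to 0.0704). These are transcript levels, and the phosphorylation through which the pathway acts was not measured here.

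Of 22 tested receptors, ligands and SMADs of the TGF beta family, 2 were higher and 2 lower, with a median of −0.07. Smad3, a transducer of activin and GDF9 signals, measured 76.1, 70.5 and 81.1 FPKM at Pd3 and 38.4, 32.8 and 30.0 FPKM at Pd7, the clearest fall of the list (log2 fold change −1.15, SE 0.13, adjusted p = 0.00117). Id3, a target of BMP signals, rose from 55.3 ± 8.4 to 86.7 ± 3.02 FPKM (adjusted p = 0.0166) and Bmp4 fell from 6.79 ± 0.622 to 3.97 ± 0.527 FPKM (adjusted p = 0.0211). Both calls were lost without Pd3 replicate 1, Pd3 replicate 3 or Pd7 replicate 3, and that of Bmp4 also without Pd3 replicate 2 (adjusted p 0.052 to 0.0943). Of 11 Notch genes, which act between oocytes and pregranulosa cells when cysts break down, only the ligand Jag2 passed, with 21.1, 21.1 and 25.9 FPKM at Pd3 and 14.9, 11.2 and 10.6 FPKM at Pd7 (log2 fold change −0.85, SE 0.16, adjusted p = 0.01), and the median was −0.10. The target Hes1 had 37.4 ± 8.62 and 24.5 ± 4.84 FPKM with overlap (adjusted p = 0.0822, 0.0122 with the replicate number as a block and 0.0488 without Pd7 replicate 2).

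**Figure D3:**
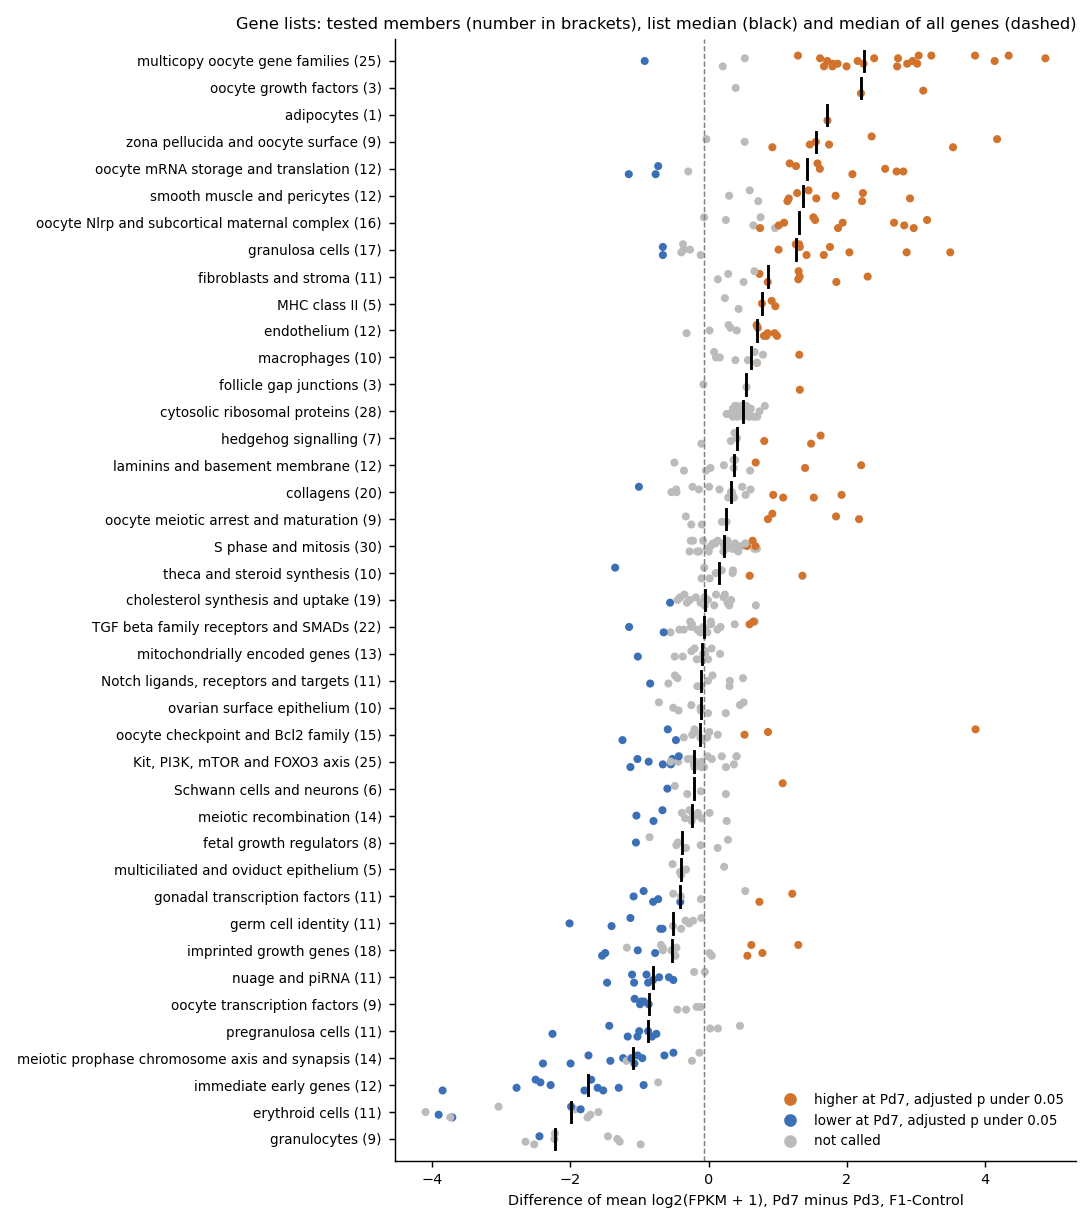
Log2 fold change from Pd3 to Pd7 on log2(FPKM + 1) of every tested member of 41 gene lists in F1-Control ovaries; orange and blue points are members called higher and lower, grey points are not called, black bars are list medians and the dashed line is the median of all 13336 genes (−0.07). The multicopy oocyte families, growth factors and oocyte surface genes lie to the right with medians of 2.24, 2.20 and 1.55, and granulocyte, erythroid, immediate early and meiotic axis genes to the left with −2.22, −1.99, −1.75 and −1.10; over the settings tried the granulocyte median lay between −2.95 and −0.99 and the erythroid median between −3.80 and −1.63.

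Imprinted growth genes moved both ways, with 4 of 18 higher, 4 lower and a median of −0.53. The maternally expressed RNA H19 measured 551, 637 and 640.0 FPKM at Pd3 and 267, 274 and 123 FPKM at Pd7 (log2 fold change −1.54, SE 0.29, adjusted p = 0.0107, and 0.0515 without Pd3 replicate 2). Igf2, the fetal growth factor of the same domain, had 75.9, 74.7 and 74.0 FPKM at Pd3 and 34.7, 27.8 and 17.9 FPKM at Pd7, with almost no spread at Pd3 (log2 fold change −1.50, SE 0.21, adjusted p = 0.00291). Dcn, which encodes the matrix proteoglycan decorin and is also a member of the stromal list below, rose from 196 ± 36.8 to 487 ± 107 FPKM (adjusted p = 0.006). Of 8 fetal growth regulators, Hmga1, a chromatin protein of embryonic cells, was lower, at 58.1 ± 5.87 and then 27.8 ± 5.85 FPKM (adjusted p = 0.00478), none was higher and the median was −0.39.

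Cell division genes were mostly not called. Of 30 genes of S phase and mitosis, 3 were higher (against 6.9% of all genes) and none lower, with a median of 0.23. Yet 23 of the 30 had a fold change above 0, and 13 were higher without overlap, against 15.6% of all genes. At an unadjusted p under 0.05 with limma there were 12, against 31.5% of all genes. Ccnb1, cyclin B1, measured 34.2, 30.5 and 35.0 FPKM at Pd3 and 47.5, 53.2 and 56.1 FPKM at Pd7 (log2 fold change 0.64, SE 0.12, adjusted p = 0.0116). Ccne2, cyclin E2, rose from 4.64 ± 1.28 to 7.91 ± 0.818 FPKM (adjusted p = 0.0387) and the replication helicase subunit Mcm7 from 43.6 ± 1.72 to 65.5 ± 14.4 FPKM (adjusted p = 0.0489). None of the 3 calls held without Pd3 replicate 2, that of Ccnb1 also failed without Pd3 replicate 1, that of Ccne2 without Pd3 replicate 3, Pd7 replicate 1 or Pd7 replicate 3, and that of Mcm7 without any library other than Pd7 replicate 1 (adjusted p 0.0538 to 0.156). Mki67, the proliferation marker, had 47.6 ± 6.27 and 40.3 ± 12 FPKM (adjusted p = 0.418).

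The checkpoint and Bcl2 genes that set oocyte survival were divided, with 3 of 15 higher, 3 lower and a median of −0.12. Trp63, the p53 relative that guards dormant oocytes, measured 13.6, 12.9 and 13.3 FPKM at Pd3 and 6.60, 4.80 and 3.98 FPKM at Pd7 (log2 fold change −1.25, SE 0.17, adjusted p = 0.0027). Bok, a family member that promotes cell death, rose from 17.8 ± 1.75 to 33.2 ± 5.48 FPKM (adjusted p = 0.00723). Bcl2l10, given above, was the steepest rise of the list.

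The tissue around the follicles changed too. Of 20 collagens, 4 were higher and 1 lower, with a median of 0.33 and 1 member that passed the filter through Pd7 only. Col4a4, a chain of basement membrane collagen, measured 1.88, 2.29 and 2.45 FPKM at Pd3 and 15.5, 5.39 and 15.9 FPKM at Pd7 (log2 fold change 1.92, SE 0.34, adjusted p = 0.00774, and 0.0595 with no filter). Col18a1, which gives rise to endostatin, went from 66.5 ± 5.24 to 33.0 ± 7.44 FPKM (adjusted p = 0.00671, and 0.112 in a model of all 18 libraries of the series), while Col1a2, of fibrillar collagen, rose from 135 ± 22.9 to 263 ± 72.5 FPKM (adjusted p = 0.0276), a call that held only without Pd7 replicate 2 (adjusted p 0.0514 to 0.12 in the other fits that left out 1 library). Of 12 laminins and other basement membrane genes, 3 were higher and none lower, with a median of 0.36. Lamc3 rose from 0.0703, 0.217 and 0.336 FPKM, through a filter passed at Pd7 only, to 3.67, 2.93 and 8.34 FPKM (log2 fold change 2.21, SE 0.29, adjusted p = 0.00236). Lama2 rose from 6.76 ± 1.31 to 19.6 ± 5.04 FPKM (adjusted p = 0.00336) and Nid1 from 56.7 ± 2.96 to 93 ± 20.2 FPKM (adjusted p = 0.0279, and 0.0684 to 0.112 without any 1 Pd3 library or Pd7 replicate 3).

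Smooth muscle and pericyte genes were higher in 9 of 12 and lower in none, with a median of 1.36 and 1 member that passed the filter through Pd7 only. Actg2, a smooth muscle actin, measured 5.23, 3.39 and 6.80 FPKM at Pd3 and 37.9, 32.7 and 68.7 FPKM at Pd7 (log2 fold change 2.91, SE 0.29, adjusted p = 0.000574). Acta2 had 32.9, 38.9 and 57.5 FPKM and then 140.4, 178 and 315 FPKM (log2 fold change 2.22, adjusted p = 0.00253). Calponin (Cnn1) rose from 3.22 ± 0.92 to 18.9 ± 4.88 FPKM and transgelin (Tagln) from 58.3 ± 9.11 to 174 ± 28.2 FPKM, both without overlap. Stromal genes were higher in 7 of 11 and lower in none, with a median of 0.85. The proteoglycan gene Ogn measured 17.6, 20.3 and 19.4 FPKM at Pd3 and 97.1, 81.3 and 119 FPKM at Pd7, a rise of 2.30 on the log2 scale (SE 0.15, adjusted p = 0.000108). Pdgfra, a receptor of stromal progenitors, rose from 10.5 ± 1.9 to 40.4 ± 6.23 FPKM (adjusted p = 0.000346) and Lum, lumican, from 48.8 ± 6.81 to 125 ± 33.1 FPKM (adjusted p = 0.00512).

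Of 12 endothelial genes, 7 were higher and none lower, with a median of 0.70. Emcn, a sialomucin of capillaries and veins, measured 9.66, 14.8 and 12.2 FPKM at Pd3 and 21.0, 28.6 and 25.5 FPKM at Pd7 (log2 fold change 0.99, SE 0.17, adjusted p = 0.00819). Egfl7, secreted by endothelium, rose from 13.9 ± 2.45 to 25.7 ± 1.66 FPKM (adjusted p = 0.00793) and Cldn5, of endothelial tight junctions, from 7.12 ± 1.58 to 13.4 ± 1.58 FPKM (adjusted p = 0.0135, and 0.0532 to 0.0709 without Pd3 replicate 1 or 3). The 10 ovarian surface epithelium genes had a median of −0.12 and none passed with limma (2 at an unadjusted p under 0.05, and 0 with limma-voom).

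Genes of general metabolism gave few calls. All 28 cytosolic ribosomal protein genes had a fold change above 0, with a median of 0.50, and 16 did not overlap between the ages (against 15.6% of all genes), but none passed with limma. At an unadjusted p under 0.05 there were 10, and limma-voom on fragments called 3. Rplp0, of the ribosomal stalk, had 1079 ± 115 and 1922 ± 413 FPKM (adjusted p = 0.0641, and 0.0299 without Pd7 replicate 1). Of 19 cholesterol synthesis genes 1 was lower and none higher, with a median of −0.06. Of 13 mitochondrially encoded genes 1 was lower and none higher, with a median of −0.10: ND6, whose template is on the opposite strand from the others, fell from 146 ± 28.7 to 71.5 ± 16.7 FPKM (adjusted p = 0.0129, and 0.0606 to 0.0631 without Pd3 replicate 1 or 2).

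Immediate early genes, which respond within minutes to growth factors and other stimuli, fell together: 11 of 12 were lower and none higher, with a median of −1.75. All 12 were lower without overlap between the ages, against 22.9% of all genes. Fosb, 1 of the 12, had passed the filter through Pd3 only and so had to differ. Fos (chr12:85473890-85477274) measured 44.5, 53.6 and 38.4 FPKM at Pd3 and 4.28, 1.41 and 1.58 FPKM at Pd7, and its log2 fold change of −3.85 (SE 0.28, adjusted p = 0.000142) was among the 12 largest called falls. Fosb had 7.62, 7.93 and 5.25 FPKM and then 0.349, 0.03 and 0.0724 FPKM (log2 fold change −2.78, adjusted p = 0.000108). Egr1 fell from 98.7 ± 13.3 to 17.9 ± 9.1 FPKM, Jun from 78.8 ± 23 to 16.4 ± 9.53 FPKM, Junb from 17.6 ± 4.16 to 2.50 ± 1.15 FPKM and the phosphatase Dusp1 from 11.7 ± 2.43 to 2.89 ± 0.199 FPKM. The calls of these 6 genes held with any 1 library left out, but in 1 model of all 18 libraries of the series those of Fosb (adjusted p = 0.112), Junb (0.0697) and Dusp1 (0.158) were lost, while Fos, Egr1 and Jun passed there too. The calls also held with any 1 library left out for Tktl1, a transketolase relative (8.69 ± 2.97 to 0.631 ± 0.611 FPKM, adjusted p = 0.00119) and Ly6d, a surface antigen (10.9 ± 4.16 to 1.49 ± 1.04 FPKM, adjusted p = 0.00408), 2 more of the 12 largest falls. The erythroid and granulocyte sums were also lower at Pd7, and their part in these falls was not tested.

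Blood cell genes had large but unsteady differences. Of 11 erythroid genes, 4 were lower and none higher, with a median of −1.99, and not one of the 11 was free of overlap. Alas2, the heme synthesis enzyme of red cells, measured 90.7, 66.6 and 41.6 FPKM at Pd3 and 42.9, 8.82 and 8.78 FPKM at Pd7, so that Pd7 replicate 1 lay within the Pd3 range (log2 fold change −1.99, SE 0.53, adjusted p = 0.0392). The call was lost without any 1 library other than Pd7 replicate 1 (adjusted p 0.0625 to 0.128). The beta globin gene Hbb-bs had 5804, 3278 and 2164 FPKM at Pd3 and 2887, 899.6 and 574 FPKM at Pd7 (adjusted p = 0.101, 0.0063 with the replicate number as a block and 0.0127 without Pd7 replicate 1). Of 9 granulocyte genes, 1 was lower and none higher, with a median of −2.22 that lay between −2.95 and −0.99 over the settings tried. Retnlg passed, at 10.1 ± 6.77 and then 1.01 ± 1.32 FPKM (adjusted p = 0.0167, and 0.0551 to 0.0623 without Pd3 replicate 1, Pd3 replicate 2 or Pd7 replicate 3), and S100a9, a calgranulin of neutrophils, had 537, 147 and 252 FPKM at Pd3 and 161, 9.12 and 49.0 FPKM at Pd7 (adjusted p = 0.0693, 0.000119 with the replicate number as a block and 0.0119 without Pd7 replicate 1). Other blood cell genes stood among the 12 largest called falls without overlap. Stfa1, a stefin of neutrophils, measured 149, 54.8 and 61.9 FPKM at Pd3 and 36.7, 1.76 and 13.9 FPKM at Pd7 (log2 fold change −2.80, SE 0.80, adjusted p = 0.0477), which was −1.77 without Pd7 replicate 2, and the call was lost without any 1 of the Pd3 libraries or without Pd7 replicate 3 (adjusted p 0.089 to 0.15). Kel, the Kell blood group protein, went from 12.4 ± 6.07 to 1.57 ± 2.69 FPKM (adjusted p = 0.0234, and 0.0544 to 0.0918 without Pd3 replicate 1, Pd3 replicate 2, Pd7 replicate 2 or Pd7 replicate 3). The part of blood in the other results was not tested beyond leaving out hemoglobin and mitochondrially encoded genes, which gave 866 higher and 1224 lower genes.

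**Figure D4:**
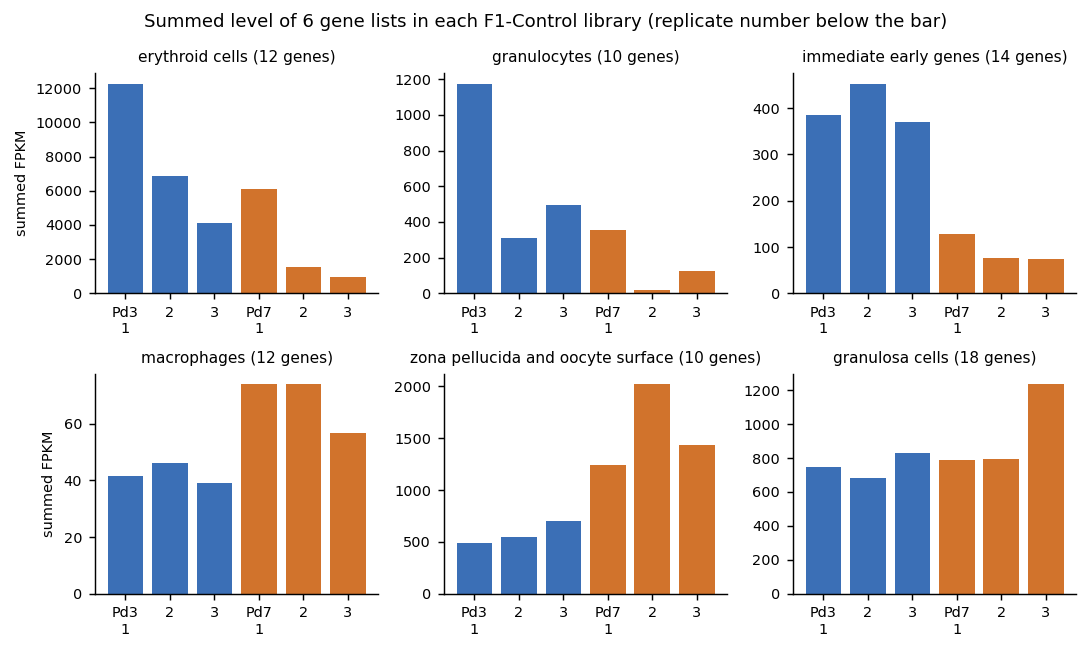
Summed FPKM of 6 gene lists in each of the 6 F1-Control libraries (bars; blue for Pd3, orange for Pd7; replicate number below each bar; axes from 0). Immediate early genes are at 370.3 or more in the Pd3 libraries and at 129.3 or less at Pd7, and oocyte surface genes at 706.1 or less and 1239 or more, while the erythroid and granulocyte sums of Pd7 replicate 1 reach into the range of Pd3.

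Macrophage genes gave few calls, though all 10 tested had a fold change above 0. Of these, 2 were called higher and none lower, with a median of 0.62. Both called genes had passed the filter through Pd7 only and so had to differ. With these 2 counted, 6 of the 10 were higher without overlap (against 15.6% of all genes), and 7 had an unadjusted p under 0.05 with limma. Lyve1, a hyaluronan receptor of lymphatic endothelium and some macrophages, measured 0.686, 0.728 and 0.404 FPKM at Pd3 and 2.82, 2.05 and 4.37 FPKM at Pd7 (adjusted p = 0.00627). Adgre1, the F4/80 antigen, rose from 0.796 ± 0.0244 to 1.96 ± 0.686 FPKM (adjusted p = 0.0347, and 0.0566 to 0.114 without any 1 Pd3 library or Pd7 replicate 1). Of 5 MHC class II genes, which serve antigen presentation, 3 were higher and none lower, with a median of 0.77. Cd74, the invariant chain, had 4.03, 5.17 and 4.31 FPKM at Pd3 and 12.4, 5.72 and 11.2 FPKM at Pd7 (adjusted p = 0.0408, and 0.0847 to 0.136 without any library other than Pd7 replicate 2). Markers of neighbouring tissues were low. Of 12 genes of multiciliated and oviduct epithelium 5 were tested, with a median of −0.40 and none called by limma or limma-voom (2 at an unadjusted p under 0.05), and 7, Foxj1 among them, were below the filter. Of 10 adipocyte genes 9 were below the filter, Adipoq among them, and the remaining 1 was higher. Of 6 tested genes of Schwann cells and neurons 1 was higher and 1 lower, with a median of −0.21.

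The control ovaries of Pd21 were sequenced in the other batch, so age and batch cannot be told apart and their values are given with no test. Several genes lay further along the direction of Pd3 to Pd7. Gdf9 was at 394 ± 90.2, Bmp15 at 83.2 ± 35.5, Amh at 226 ± 7.23, Inha at 577 ± 147 and Gja1 at 362 ± 119 FPKM. Sycp1 was at 1.23 ± 0.231, Sycp3 at 7.84 ± 2.05, Sohlh1 at 4.76 ± 1.71, Piwil2 at 1.67 ± 0.844 and H19 at 75.3 ± 21 FPKM. Others did not go on. Zp2 was at 387 ± 139, Zp3 at 456 ± 117, Ooep at 192 ± 33.6, Nlrp14 at 297 ± 83.5 and Dcn at 297 ± 65.4 FPKM, each below its Pd7 mean. Figla, not called between Pd3 and Pd7, was at 6.87 ± 1.13 FPKM, and Cyp17a1 and Cyp11a1 were at 45.6 ± 62.2 and 44.7 ± 39.9 FPKM, with SDs close to or above the means.

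The same ages under the high-methionine diet give the nearest other course. In a model of the 12 libraries of batch 1 with 13998 genes, 621 genes changed from Pd3 to Pd7 in F1-HHcy ovaries (4.44%) and 1765 in F1-Control ovaries (12.6%). The difference between the courses, tested as the interaction of day and diet, passed for 72 genes (0.514%), of which 22 had the more positive change in F1-HHcy and 50 in F1-Control. This balance turned with no filter on low values (23 and 9) and without F1-Control Pd7 replicate 1 (99 and 68). The count was 40 with the replicate number as a block. It depended on single libraries and was 0 without F1-Control Pd3 replicate 1 or replicate 2 (1765 and 2053 genes at an unadjusted p under 0.05, against 2347 with all libraries, 16.8%), 1 without F1-HHcy Pd3 replicate 2, 5 without F1-HHcy Pd7 replicate 2, 11 without F1-HHcy Pd7 replicate 1 and 36 without F1-Control Pd7 replicate 2, and it was 167 without F1-Control Pd7 replicate 1, 197 without F1-HHcy Pd3 replicate 1 and 449 without F1-HHcy Pd3 replicate 3. The F1-HHcy Pd3 libraries varied widely, for example Obox5 with 44.3, 24.5 and 2.32 FPKM and Amh with 99.7, 35.2 and 9.72 FPKM.

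The 5 genes with the smallest p for this difference were oocyte and somatic genes that rose in the control course. Pcp4, a calmodulin-binding peptide, had 3.06, 2.44 and 2.35 FPKM at Pd3 and 15.2, 20.6 and 11.9 FPKM at Pd7 in F1-Control ovaries, and 5.72, 12.8 and 4.34 FPKM and then 1.97, 3.62 and 2.53 FPKM in F1-HHcy ovaries. The courses differed by −3.32 on the log2 scale (SE 0.43, adjusted p = 0.0192). Dppa5a, a pluripotency-associated RNA-binding protein, had 47.8 ± 5.7 and 173 ± 57.1 FPKM in F1-Control, and 124, 167 and 140 FPKM and then 112, 105 and 96.5 FPKM in F1-HHcy, a difference of −2.24 (SE 0.28, adjusted p = 0.0192). Gpc3, a cell surface proteoglycan that restrains growth, differed by −1.37, Smim41 by −2.34 and Khdc1a, an oocyte KH domain gene, by −2.29, all with an adjusted p of 0.0192. For all 5 genes the F1-HHcy libraries of Pd3 were above every control library of Pd3, and the calls were lost without F1-Control Pd3 replicate 1 or 2, those other than Pcp4 also without F1-HHcy Pd3 replicate 2, and those of Smim41 and Khdc1a also without F1-HHcy Pd7 replicate 2 (adjusted p 0.0529 to 0.0711). The zona genes followed the same arrangement. Zp2 had 488, 728 and 444 FPKM at Pd3 and 301, 250 and 359 FPKM at Pd7 in F1-HHcy ovaries, against 249.5 ± 63.1 and 692 ± 186 FPKM in F1-Control, and Zp3 had 370, 474 and 288 FPKM and then 228, 187 and 346 FPKM. The differences of −2.31 (SE 0.35, adjusted p = 0.0192) and −2.14 (SE 0.41, adjusted p = 0.0428, and 0.0703 with the replicate number as a block) were both lost without F1-Control Pd3 replicate 1 or 2, F1-HHcy Pd3 replicate 2 or F1-HHcy Pd7 replicate 1 or 2, and that of Zp3 also without F1-Control Pd7 replicate 2 or 3 (adjusted p 0.0569 to 0.134). In contrast, Sycp1 went from 3.98, 8.71 and 15.0 FPKM to 2.41, 1.92 and 1.53 FPKM in F1-HHcy, and its courses were not called different (0.35, SE 0.51, adjusted p = 0.758).

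**Figure D5:**
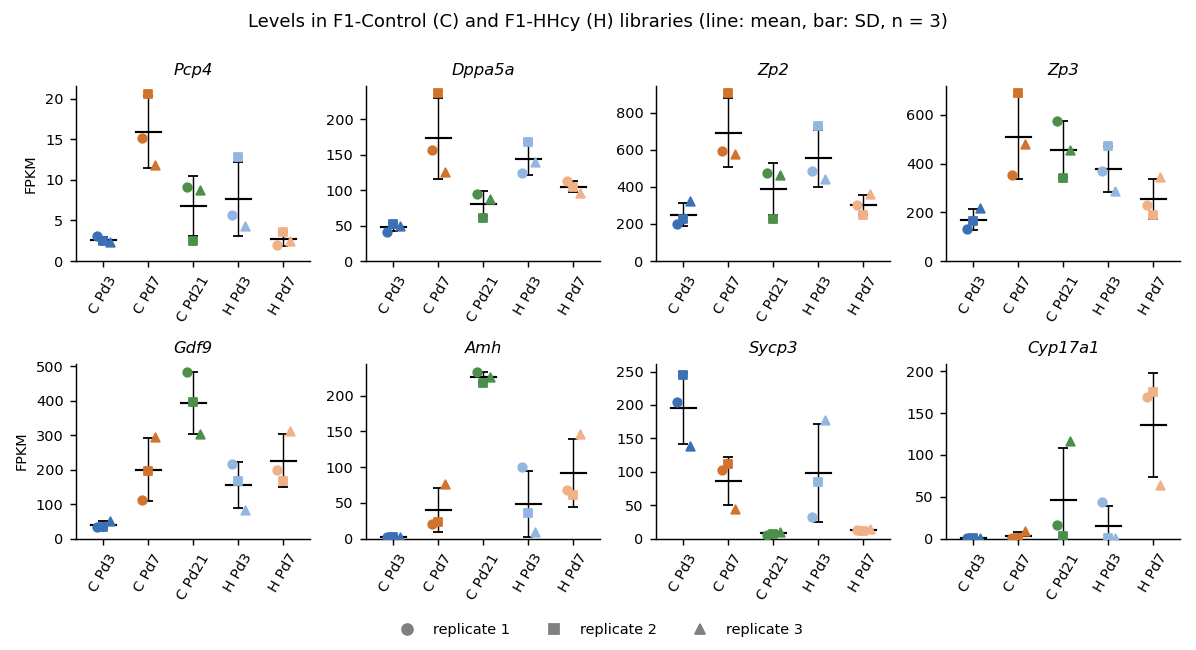
FPKM of 8 genes in F1-Control libraries of Pd3, Pd7 and Pd21 (C) and F1-HHcy libraries of Pd3 and Pd7 (H), 1 panel per gene with its own axis from 0; symbols mark the replicate number, lines are means and bars SD (n = 3). Pcp4, Dppa5a, Zp2 and Zp3 are higher at Pd7 than at Pd3 in the control course and lie at or below their Pd3 level at Pd7 under the other diet, except where single libraries of Zp3 overlap (346 against 288 FPKM), and the Pd21 libraries belong to another batch.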

How the data were processed

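RNA-seq libraries of whole ovaries were stranded poly-A libraries. The authors deposited 1 FPKM value per gene symbol and library, read as FPKM because the unit is not named: a length per gene and a total per library turned the values of 27294 of 27294 genes above 0 in at least 3 libraries into whole fragments within 0.02, so depth is known. The submitters' processing notes name FastQC 0.11.9, Trimmomatic 0.39, STAR 2.7.9a, featureCounts 2.0.1, Subread, DESeq2 1.36.0 and GRCm38/mm10. All deposited files were mapped to samples by their labels.

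The 3 Pd7 and 3 Pd3 F1-Control libraries were compared by limma (version 3.58.1, R 4.3.3) on a log2 scale after adding 1 to the FPKM, with a variance trend. Genes had to reach 1 FPKM in 3 or more of the 6 libraries and were called at a Benjamini-Hochberg adjusted p under 0.05. The interaction of day and diet was fitted on 12 libraries. The fits were tested on simulated data. Further computing used Python 3.11.15 (pandas 2.3.3, numpy 2.4.6) and plots matplotlib 3.10.9. Gene positions and promoters are from RefSeq, GRCm38.p6.

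Named genes were the 12 largest called rises and falls without overlap, of each list the 3 with the smallest p and the 2 most abundant, a set of marker genes, and the 5 smallest p of the interaction; a part is given in full. The 6 libraries, the gene lists and these rules were chosen with earlier results of these data known, and lists are described without a test. Alternatives were a pseudocount of 0.1, no filter, all 18 libraries in 1 model, median-ratio scaling, no mitochondrially encoded or hemoglobin genes, the replicate number as a block, limma-voom on fragments, other thresholds and each library left out in turn. The labels number replicates 1 to 3 at both ages. The deviations of same-numbered libraries from their group means correlated with r = 0.134, 0.262 and 0.292, and those of differently numbered libraries with r from −0.262 to 0.0585. The main fits did not use the replicate number, which entered only as the alternative block. Replicates differed by more than sampling noise, and all were kept. A value of a few hundredths of an FPKM rests on few fragments.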

Additional observations from a re-analysis of the deposited data

Results flagged for a closer look

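For 11 of the genes described above and for A530040E14Rik, one of the 12 largest called rises of the control course, the Pd3 to Pd7 course differed between F1-HHcy and F1-Control by the interaction of day and diet in limma. Values are the F1-HHcy course minus the F1-Control course on log2(FPKM + 1), with adjusted p from limma. The difference was −2.24 for Dppa5a, −1.37 for Gpc3, −3.32 for Pcp4, −2.34 for Smim41, −2.29 for Khdc1a and −2.31 for Zp2, each with an adjusted p of 0.0192. It was −3.52 for A530040E14Rik (adjusted p = 0.0215). With an adjusted p of 0.0428 each, it was −2.49 for Zar1, −2.14 for Zp3, −1.50 for Pdgfra and −1.97 for Nlrp14. It was 1.64 for ND6 (adjusted p = 0.0449), the one gene of the 12 with the more positive course in F1-HHcy. All 12 calls were lost without F1-Control Pd3 replicate 1 or replicate 2, and all but that of Pcp4 also without F1-HHcy Pd3 replicate 2, with adjusted p up to 0.143. Those other than Dppa5a, Gpc3 and Pcp4 were lost without F1-HHcy Pd7 replicate 2 too, and of these 9 those other than Smim41 and Khdc1a without F1-HHcy Pd7 replicate 1. The call was also lost without F1-Control Pd7 replicate 2 for Zp3, Zar1, Nlrp14, Pdgfra, A530040E14Rik and ND6, without F1-Control Pd7 replicate 3 for Zp3, Zar1, Nlrp14 and Pdgfra, without F1-HHcy Pd7 replicate 3 for Nlrp14 and Pdgfra, without F1-Control Pd3 replicate 3 for Pdgfra and without F1-Control Pd7 replicate 1 for ND6. With the replicate number as a block, A530040E14Rik (adjusted p = 0.0514), Zp3 (0.0703), Zar1 (0.0753), Pdgfra (0.0771), Nlrp14 (0.08) and ND6 (0.0806) did not pass. In the model of all 18 libraries Pdgfra (0.161) and ND6 (0.278) did not pass, with limma-voom Zar1 (0.0502), Nlrp14 (0.0523) and ND6 (0.0531), with median-ratio scaling ND6, and with no filter Khdc1a (0.0521), Zp2 (0.0615), A530040E14Rik (0.0714), Pdgfra (0.106), ND6 (0.116), Zp3, Zar1 and Nlrp14 (0.117 each).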

How the results depend on the processing

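The counts of 920 genes higher and 1012 lower at Pd7 became 511 and 375 with no filter on low values and 381 and 213 where a log2 fold change of at least 1 was also asked for. Leaving out 1 library at a time gave 405 to 1024 higher and 210 to 1371 lower genes. The other settings stayed within 1.5 times of these counts, at 751 to 1150 higher and 813 to 1423 lower genes, with 864 and 967 by limma-voom and 1150 and 1423 with the replicate number as a block. Some calls given in the report did not pass in single settings. In 1 model of all 18 libraries, in which the F1-HHcy libraries and the Pd21 libraries of the other batch share the estimate of the spread, they were those of Zp1, Sohlh1, Sycp3, Tex11, Mov10l1, Inhbb, Gja1, Lgr5, Bmp2, Wt1, Hsd3b1, Ptch1, Bmp4, H19, Ccnb1, Ccne2, Col18a1, Nid1, Cd74, Fosb, Junb, Dusp1 and ND6. With no filter, where more genes share the adjustment, they were those of Zp1, Zp3, Ooep, Sohlh1, Foxo3, Sycp3, Syce3, Rec114, Tex11, Prdm9, Mov10l1, Inha, Inhbb, Fshr, Gja1, Lgr5, Gng13, Aldh1a1, Cdkn1b, Emx2, Runx1, Wt1, Hsd3b1, Gli1, Bmp4, H19, Ccne2, Mcm7, Col4a4, Col1a2, Nid1, Cldn5, Alas2, Stfa1, Retnlg, Kel, Adgre1, Cd74 and ND6. Limma-voom did not call Wt1, Mcm7 and Cd74, median-ratio scaling Sohlh1, Sycp3 and Wt1, the pseudocount of 0.1 Mcm7 and Stfa1, and the values without mitochondrially encoded and hemoglobin genes Mcm7. With the block, 1903 of the 1932 called genes were also called. Higher genes made up 47.6% of the calls, and 56.9% with median-ratio scaling and 41.4% without mitochondrially encoded and hemoglobin genes. The 72 genes whose course differed between the diets became 32 with no filter, 40 with the replicate block, 1625 by the criterion of a log2 change above 0.58 with p under 0.05 before adjustment, and 0 to 449 with 1 library left out. Without F1-Control Pd7 replicate 3 the log2 fold changes of 3 uncalled genes turned positive, to 0.0075 for Figla (range −0.65 to 0.0075 over the fits with 1 library left out), 0.012 for Nobox (−0.31 to 0.012) and 0.015 for Star (−0.23 to 0.015). Of 41 lists, 38 kept the sign of their median in every setting, and the TGF beta, cholesterol and mitochondrially encoded lists, with medians near 0, did not. Where leaving out a library leaves an age with 2, the test has less power by construction. Low genes had larger folds with a pseudocount of 0.1, as for Oosp3 (5.30 against 3.54). The cause of the other changes was not tested.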
